A study of Mus musculus and Homo sapiens with 22 samples.

Results

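Peaks of the transcription factor PROX1 were examined at 9 genes that encode hormones, growth factors, their binding proteins or their receptors made by the liver: Ghr, Igf1, Igfals, Igfbp1, Igfbp2, Igfbp4, Fgf21, Angptl4 and Agt. A peak was placed at a gene when its summit, the base of highest signal, lay in the gene body or within 50 kb of it. This gave 141 of 50159 peaks (0.281%) in mouse liver, 51 of 40531 peaks (0.126%) in mouse embryonic fibroblasts (MEFs) and 23 of 14369 peaks (0.16%) in human Hep3B cells, where the uppercase human symbols were used. CUT&RUN, in which an antibody directs a nuclease to chromatin and the released fragments are sequenced, was run on 22 samples in 6 groups. The liver groups used nuclei from wild-type C57BL/6J mice of 2 to 3 months, with 5 samples for endogenous PROX1 and 5 for control IgG. The MEF groups used fibroblasts of wild-type C57BL/6N embryos at E13.5, transduced with the lentiviruses rtTA and tetO-FLAG-mmProx1 and kept in doxycycline at 2 µg/ml for 2 days, with 3 samples for FLAG and 3 for IgG. The Hep3B groups used a human liver cancer line that was transduced with a pLIX-Puro-hsPROX1 lentivirus, selected with puromycin and induced with doxycycline at 2 µg/ml for 2 days, also with 3 samples each. Thus the liver list reports the factor that the tissue makes itself, whereas both other lists report a tagged and overexpressed one.

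Growth hormone from the pituitary acts on the liver through its receptor GHR, and the liver responds by secreting insulin-like growth factor 1 (IGF1). In blood most IGF1 travels in a complex with an IGF-binding protein and the acid-labile subunit encoded by Igfals, while other binding proteins (IGFBP1, IGFBP2 and IGFBP4) limit its access to receptors. FGF21 is a fasting-responsive hormone, ANGPTL4 inhibits lipoprotein lipase, and angiotensinogen (Agt) is the precursor of the angiotensin peptides. PROX1 is a homeodomain-related factor of hepatocytes, best known from liver and lymphatic development.

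Each list was made by the authors from all samples of 1 antibody group together, so no value exists per sample, no error between replicates can be given and no difference was tested. IgG samples have no list used here. The smallest peak area, the signal summed over a peak, was 500 in the liver list and 200 in the MEF and Hep3B lists. Presence in 1 list and absence in another were therefore not judged at an equal cut. The values of the 3 lists are not on a common scale, so each peak is given by the −log10 of its summit p-value and by its percentile in its own list, the share of that list with a summit value at or below it. A value in brackets without a name is a −log10 p, and coordinates are those of mm10 unless hg38 is named. No gene expression was used, so levels of the 9 genes are not given. The window sets the membership of each peak: the liver peak farthest inside lay 49446 bp from Igfbp1, with a −log10 p of 18.4, and the nearest one outside lay 50578 bp from Igfals, with 16.1. In MEFs these edge values were 5.38 at 47713 bp from Agt and 6.68 at 52464 bp from Fgf21, and in Hep3B they were 6.70 at 48474 bp and 6.79 at 52786 bp, both from FGF21.

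The sequences of 121 bp around the summits that the results below turn on are shown first. Except in the last pair, each is on the forward strand of mm10, with any exact match to the motifs listed further on in capitals. The first set gives, for 5 genes, the strongest liver peak away from the promoter whose nearest start site is that of the gene itself.
upstream of Ghr, chr15:3618466-3618586: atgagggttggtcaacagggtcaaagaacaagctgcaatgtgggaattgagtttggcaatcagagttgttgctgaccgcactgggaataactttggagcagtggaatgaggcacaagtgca
intron of Igf1, chr10:87885744-87885864: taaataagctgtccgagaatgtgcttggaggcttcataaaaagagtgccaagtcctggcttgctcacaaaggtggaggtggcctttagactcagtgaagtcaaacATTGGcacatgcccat
upstream of Igfbp2, chr1:72792313-72792433: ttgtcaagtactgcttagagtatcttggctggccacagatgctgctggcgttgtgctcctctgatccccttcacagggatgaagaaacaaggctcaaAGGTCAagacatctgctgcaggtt
downstream of Igfbp4, chr11:99062802-99062922: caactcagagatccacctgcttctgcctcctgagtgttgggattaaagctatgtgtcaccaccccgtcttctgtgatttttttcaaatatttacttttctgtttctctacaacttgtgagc
downstream of Fgf21, chr7:45610999-45611119: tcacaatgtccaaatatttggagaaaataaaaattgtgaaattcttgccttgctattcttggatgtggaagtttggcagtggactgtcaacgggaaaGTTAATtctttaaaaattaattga
Here the capitals mark the nuclear receptor core AGGTCA at Igfbp2, the HNF1 letters GTTAAT at Fgf21 and the CCAAT box (ATTGG on this strand) at Igf1, and the other sequences hold no match.

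The second set gives promoter summits. The Igfals, Igfbp1 and Igfbp2 summits come from genes that had a promoter peak in liver and none in MEFs. Fgf21 and Agt were such genes too, and their summits are not shown. In the same 121 bp the strongest promoter summit held no exact match at Fgf21 and the letters CACGTG (E-box) at Agt.
promoter of Igfals, chr17:24877797-24877917: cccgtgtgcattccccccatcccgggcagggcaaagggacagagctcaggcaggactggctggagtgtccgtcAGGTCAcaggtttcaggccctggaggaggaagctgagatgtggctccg
promoter of Igfbp1, chr11:7197435-7197555: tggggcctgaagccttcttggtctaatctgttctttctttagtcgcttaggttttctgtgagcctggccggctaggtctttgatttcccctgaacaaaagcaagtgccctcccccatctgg
promoter of Igfbp2, chr1:72826020-72826140: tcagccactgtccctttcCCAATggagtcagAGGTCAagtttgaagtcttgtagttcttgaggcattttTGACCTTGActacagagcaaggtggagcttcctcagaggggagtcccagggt
The capitals mark AGGTCA in Igfals, and the Igfbp1 sequence holds no match. In Igfbp2 they mark a CCAAT box, a copy of AGGTCA and the extended site TCAAGGTCA of the nuclear receptor NR5A2 (LRH-1), which lies on the reverse strand and itself contains AGGTCA. A match is a run of letters and was not tested as a binding site.

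The last pair is the promoter at the gene start of Ghr and GHR, shown because it had a peak in all 3 lists. It is given in the reading direction of the gene, from the part of the human summit window before the gene start and the stretch of the mouse peak most like it without gaps.
GHR, hg38 chr5:42423396-42423438, plus strand: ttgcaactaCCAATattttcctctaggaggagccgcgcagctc
Ghr, mm10 chr15:3583521-3583563, minus strand: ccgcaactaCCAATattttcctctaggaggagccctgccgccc
The capitals mark the CCAAT box alone, which ends 30 bp before the human and 58 bp before the mouse gene start. The human stretch also opens with TTGCAA, the letters of C/EBP, left in lower case, where the mouse stretch has CCGCAA. Of 43 bases 37 (86%) were identical, 32 of them in 1 run that includes the box.

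Every one of the 9 loci held several liver peaks, from 7 at Agt to 43 at Ghr. The others were Igfals, Igfbp1 and Igfbp4 with 11 each, Angptl4 with 12, Igfbp2 with 13, Fgf21 with 14 and Igf1 with 19. The median over the 9 genes was 12, beside 3 over all 21938 mouse protein-coding genes, of which 69.2% had at least 1 liver peak. Per 100 kb of window, which takes the length of the genes into account, the loci held 6.18 to 13.8 peaks, with a median of 10.5 beside 1.84 over all genes. On this scale Fgf21 was at the 95.8th percentile of all genes, Ghr at the 92.9th and Agt, the lowest, at the 77.4th.

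In MEFs the same loci held 2 (Agt) to 9 (Ghr) peaks, with a median of 6 beside 4 over all genes, of which 81.3% had a peak. In Hep3B they held 0 to 7, with a median of 2 beside 1, and 7 of 9 loci had a peak where 71.9% of 20033 human genes did. IGF1 and IGFBP2 had no Hep3B peak. The lists also differ in how many of these peaks belong to the genes by position. The nearest protein-coding start site was that of the named gene for 100 of 141 liver peaks, for 19 of 51 MEF peaks and for 5 of 23 Hep3B peaks. The median number of such peaks per gene was 6 in liver, beside 0 over all genes. It was 1 beside 1 in MEFs and 0 beside 0 in Hep3B, but there the genes were mixed. In MEFs Ghr and Igf1 stood at the 97.9th and 95.1st percentile of all genes by this number. Igfals, Fgf21 and Agt stood at the 34.9th there and the rest between the 62.85th and the 87.5th. In Hep3B GHR stood at the 99.2nd and IGFBP4 at the 87.5th, and the others had 0 such peaks. The windows of Fgf21, Igfals and Angptl4 are dense with other genes, so the light parts of the bars in the plot of counts are large there.

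**Figure D1:**
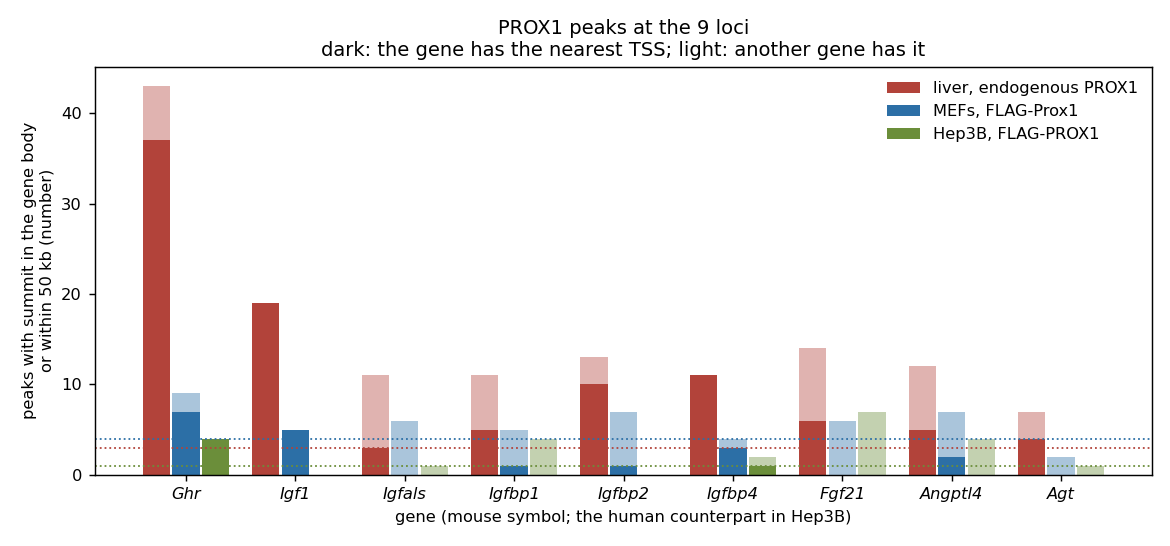
Number of peaks (y axis) at each of the 9 loci (x axis) in liver, MEFs and Hep3B. The dark part of a bar counts peaks whose nearest protein-coding start site is that of the gene and the light part those nearer to another gene, and dotted lines give each list's median over all protein-coding genes (3, 4 and 1). The liver bars reach 43 at Ghr and are the highest of the 3 at every locus.

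At Ghr, the receptor that starts the pathway, 31 of 43 liver peaks lay in the gene body, 8 upstream and 4 downstream, and 37 were nearest to a Ghr start site. The 6 peaks in the top 10% of the list included 5 upstream of the gene. Those 5 lay 1011, 18387, 24672, 35034 and 36984 bp before its start, with −log10 p of 20.4, 21.7, 21.1, 22.8 and 21.7. The strongest, chr15:3617828-3618940, ranked 730 of 50159 (percentile 98.5) and is intergenic. The 6th, chr15:3499930-3500535, lies in an intron 83178 bp into the gene, with −log10 p of 18.5. Ghr has several first exons, and 2 promoters carried peaks. At the gene start, chr15:3582886-3583758 had its summit 87 bp before the start (15.3, percentile 76.2) and chr15:3581331-3582527 had its summit 289 bp from another start site (14.5, percentile 70.4). At the internal promoter about 112 kb downstream, chr15:3471435-3471882 lay 70 bp from a start site (16.7, percentile 84.4) and chr15:3472158-3472597 lay 762 bp from one (11.4, percentile 41.1). No MEF peak was placed at the internal promoter, while the promoter at the gene start was the strongest MEF peak of the locus (8.11, percentile 89.9), 10 bp from a start site.

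At Igf1 all 19 liver peaks were nearest to Igf1 itself, 16 of them in the gene body and 3 upstream. Their median percentile was 82.4, the highest of the 9 loci. The strongest, chr10:87884786-87886254, lies in an intron 27539 bp into the gene, with −log10 p of 23.9 and rank 424 of 50159. A neighbouring intronic peak, chr10:87896998-87897788, reached 22.8 at 39290 bp, and further peaks in the top 10% lay 8323 bp (18.9) and 68802 bp (19.4) into the gene. The last of these, chr10:87925359-87927678, was 2320 bp wide and overlapped a MEF peak of 5.52. By contrast the 3 promoter peaks had −log10 p of 11.2, 10.2 and 9.50, at the 38.9th, 26.3rd and 16.6th percentile, with summits 247, 287 and 107 bp from a start site. In MEFs the strongest Igf1 peak lay at the promoter (7.06, percentile 74.8, 119 bp from a start site), although another promoter peak was low (4.19, percentile 3.91). The 3 MEF peaks of the locus outside the promoters stayed at or below the 37.7th percentile.

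Igfals, whose product holds IGF1 complexes in the circulation, had 11 liver peaks, of which 3 were nearest to Igfals. Its promoter peak, chr17:24876887-24879711, was 2825 bp wide, with the summit in an exon 201 bp from an internal start site of the gene, a −log10 p of 18.1 and the 89.9th percentile. The strongest peak of the window, chr17:24846965-24850632 (23.4, rank 562, 3668 bp wide), lies in an intron of Hagh and is nearest to Fahd1, not to Igfals. In MEFs none of the 6 peaks was nearest to Igfals. They lay by the start sites of its neighbours, with summits 35 bp from Hagh, 10 bp from Spsb3, 50 bp from Nme3, 370 bp from Eme2 and 525 bp from Fahd1, and a further one 1233 bp from Hagh.

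Among the binding proteins, Igfbp1 is known as the one that insulin represses. Its promoter peak in liver, chr11:7197152-7197880, had its summit 287 bp before the start, with −log10 p of 15.9 and the 80.2nd percentile. Of 11 peaks 9 lay upstream, and the strongest, chr11:7187418-7187997 (19.3, percentile 93.4), lies 10140 bp upstream in an intron of the neighbouring gene Gm11985, whose start site is nearer. Another peak in the top 10% (18.4) was the one at the edge of the window. MEFs had no promoter peak at Igfbp1. A narrow intronic peak of 205 bp in liver (10.3) and 220 bp in MEFs (5.03) was the shared one, with summits 34 bp apart, 2459 and 2425 bp into the gene.

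At Igfbp2, which encodes another carrier of IGF1, the promoter peaks were low in the list and the strongest peak lay far upstream. Its 4 promoter peaks in liver had −log10 p of 8.18 to 10.0, at the 4.27th to 23.6th percentile, the closest with its summit 2 bp from the start. The strongest of the 4 is chr1:72825950-72826224, in an intron 758 bp from a start site. The peak at chr1:72791542-72792881, 32130 bp upstream and intergenic, had a −log10 p of 24.2 and ranked 360 of 50159, above every other peak of the 9 loci. Another upstream peak, at 14335 bp, reached 18.0 (percentile 89.6). Other peaks away from the promoter were as low as the promoter peaks, with 2 in the gene body at the 5.55th and 4.26th percentile. The downstream flank belongs to Igfbp5, another binding protein gene: 3 liver peaks and 6 of 7 MEF peaks of this window were nearest to Igfbp5, and all 3 liver peaks that overlapped a MEF peak were among them.

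At Igfbp4 a promoter peak came closest to the strongest peak of its locus. The 4051 bp wide peak chr11:99043520-99047570 had its summit 21 bp from an internal start site (6088 bp into the gene, in a UTR), with −log10 p of 22.4, rank 867 and the 98.3rd percentile. By area, the signal summed over the peak, it was at the 99.9th percentile of the list. The strongest peak, chr11:99062558-99064355, lay 21618 bp from the gene start, beyond its end, with 23.4 and rank 553, and a peak at 24873 bp reached 18.6. The other promoter peaks had 14.8 and 10.5. All 11 liver peaks were nearest to Igfbp4. In MEFs the promoter peaks had 5.19 and 4.13, at the 28.2nd and 3.14th percentile, and the strongest peak of the window (7.50) lay 58 bp from the start of Top2a.

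At the short Fgf21 gene the strongest liver peak, chr7:45609417-45611671 (21.7, rank 1252, 2255 bp wide), lay 4431 bp from the start, downstream of the gene and intergenic. The 3 promoter peaks had −log10 p of 11.7, 10.8 and 10.4 at 923, 92 and 710 bp from the start, and the first, the strongest of the 3, is closer to the start of Fut1. In MEFs none of 6 peaks was nearest to Fgf21, although 5 were in the top 10% of the MEF list. Those 5 lay at Mamstr and Bcat2, with summits 32 to 14171 bp from the nearest start site and the highest −log10 p at 9.62.

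At Angptl4 the strongest liver peak, chr17:33773368-33776212, was 2845 bp wide with its summit in a UTR 6966 bp into the gene, towards its 3′ end (21.5, rank 1334, percentile 97.3). The promoter peak in liver, chr17:33781317-33781693, was low in the list (9.83, percentile 20.8). Promoter peaks in MEFs stood higher, at 6.87 (percentile 71.1) and 5.93 (percentile 48.9). A peak within 100 bp of the start of the neighbour Rab11b was shared between liver (9.88, percentile 21.4) and MEFs (9.08, percentile 96.5), with summits 14 bp apart.

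At Agt the strongest of 7 liver peaks, chr8:124571393-124572430, lay 2558 bp upstream (19.8, percentile 94.7), and the promoter peak, chr8:124568974-124570613, had its summit in an intron 468 bp from the start (14.2, percentile 68.7). None of the liver peaks lay downstream. MEFs had 2 peaks in this window, one 76 bp from the start of Cog2 and one in an intron of Capn9, and none nearest to Agt.

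**Figure D2:**
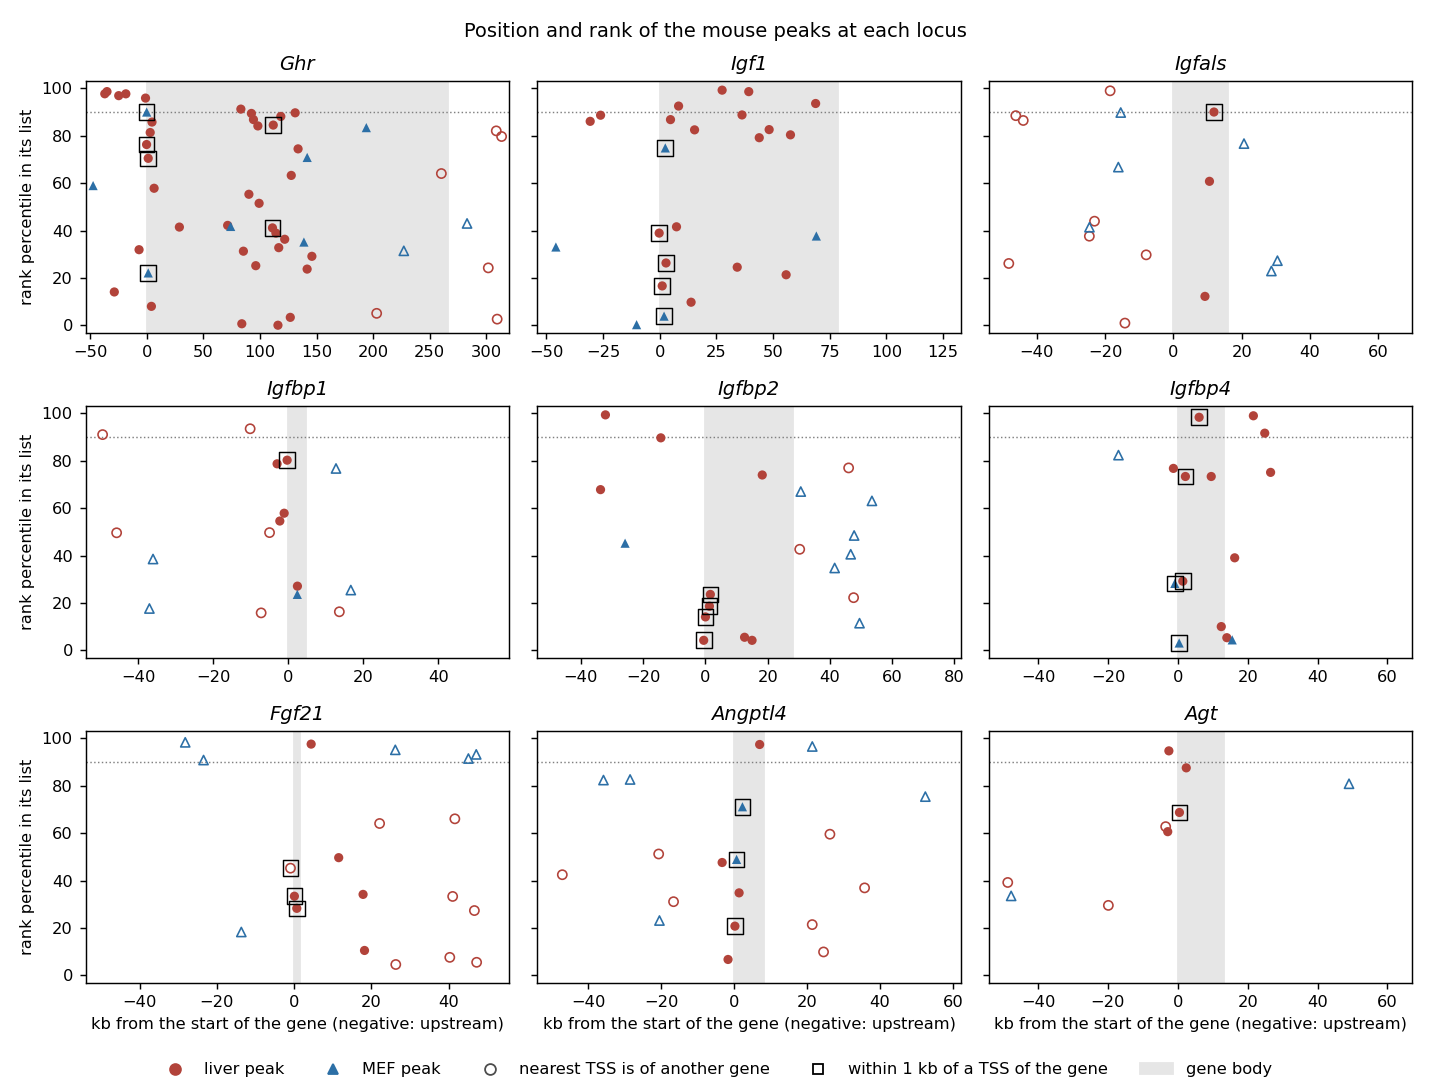
Rank percentile of each mouse peak in its own list (y axis) against distance in kb from the gene start (x axis, negative upstream) for the 9 genes, with circles for liver, triangles for MEFs, open symbols for peaks nearer to another gene, squares around promoter peaks and grey for the gene body. The dotted line is the 90th percentile, above which 20 liver peaks and 6 MEF peaks lie. At Ghr 5 of the liver peaks above the line lie upstream of the gene, and at Igf1 all 4 lie inside it.

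All 9 genes had a liver peak within 1 kb of one of their start sites, beside 28.3% of all mouse protein-coding genes. In MEFs 4 of 9 did (Ghr, Igf1, Igfbp4 and Angptl4), beside 56.5% of all genes, and in Hep3B 2 of 9 did (GHR and IGFBP4), beside 45.2%. A promoter peak in liver and none in MEFs was found at Igfals, Igfbp1, Igfbp2, Fgf21 and Agt, 5 of 9 genes, beside 4.44% of all genes. With both mouse lists shortened to their 14369 strongest peaks, 4 of 9 genes kept a liver promoter peak (Ghr, Igfals, Igfbp1 and Igfbp4), beside 6.26% of all genes, and 3 of 9 a MEF one (Ghr, Igf1 and Angptl4), beside 34.7%. One in liver and not in MEFs was then found at Igfals, Igfbp1 and Igfbp4, beside 3.34% of all genes. Igfbp4 enters here because its MEF promoter peaks are among those left out.

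Every gene had a promoter peak in liver, and in none of the 9 was it the strongest peak of the locus. That strongest peak was nearest to Fahd1 at Igfals and to Gm11985 at Igfbp1. Among the peaks nearest to Igfals or Igfbp1 itself the promoter peak was the strongest. Over all genes with a promoter peak and at least as many peaks as the fewest at any of the 9 genes with a promoter peak in that list, a promoter peak was the strongest for 8.11% in liver (at least 7 peaks), 30.8% in MEFs (at least 4) and 45% in Hep3B (at least 2). Of the 4 genes that qualified in MEFs the promoter peak was the strongest at Ghr and Igf1, and of 2 in Hep3B it was at GHR. The 21 liver promoter peaks of the 9 genes ranged from the 4.27th to the 98.3rd percentile, with a median at the 38.9th, and 1 of them was in the top 10%. The other 120 liver peaks had a median at the 53rd percentile, and 19 were in the top 10%. In the whole liver list promoter peaks also stood lower, with a median at the 34.8th percentile beside the 53rd for the rest. In the whole MEF list promoter peaks stood higher than the rest, with medians of 65.5 and 43.7. At the 9 genes the 8 MEF promoter peaks had a median of 38.6 with 0 in the top 10%, beside 45.2 for the other 43 with 6 in the top 10%. The splits are unlike: in a whole list promoter peaks of any gene count, but at the 9 loci only those of the named gene do. The other peaks of the loci thus include promoter peaks of neighbours. All 6 MEF peaks in the top 10% were nearest to Bcat2, Mamstr or Rab11b.

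**Figure D3:**
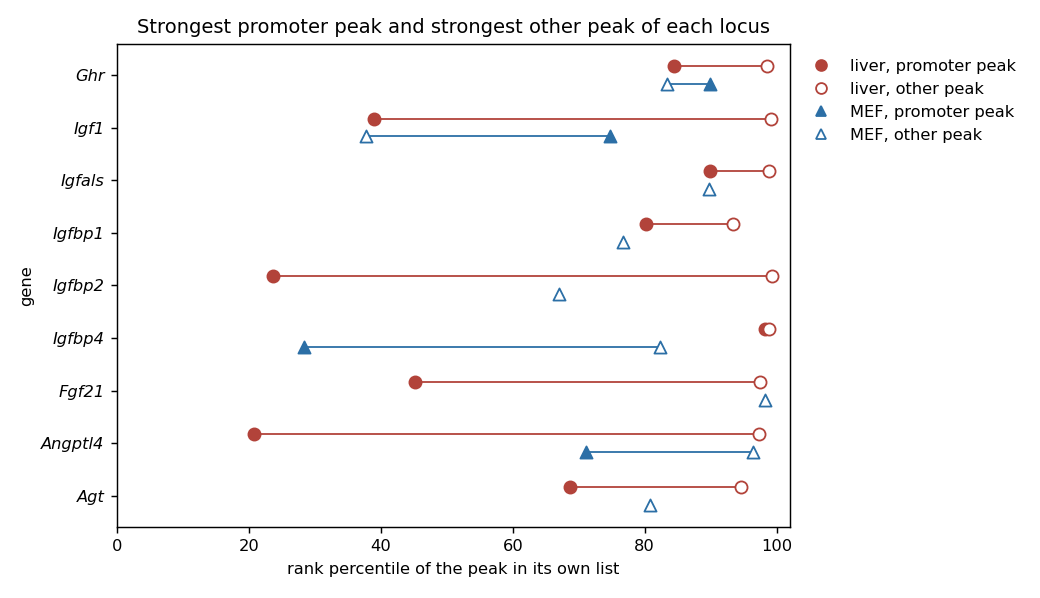
Rank percentile (x axis) of the strongest promoter peak (filled) and the strongest other peak (open) of each gene (y axis), in liver (circles) and MEFs (triangles). In liver the open symbol lies to the right at all 9 genes, from 93.4 to 99.3. In MEFs 4 genes have a filled symbol, and at Ghr and Igf1 it lies to the right.

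The 141 locus peaks as a whole sat in the middle of the liver list. Their median percentile was 49.7 (95% interval of the median 39.2 to 64, from order statistics and for these peaks as if independent), and 14.2% of them were in the top 10% and 12.1% in the bottom 10%. The strongest peak of each locus lay between the 93.4th and 99.3rd percentile, with a median of 98.5. Among all 6430 genes with at least 7 liver peaks the median of the strongest was 93.3, with quartiles of 85.5 and 97.5. In MEFs the median of the strongest over the 9 loci was 82.3, beside 90.9 for genes with at least 2 peaks. Broad peaks of 2 kb or more made up 10 of 141 liver peaks (7.09%) beside 2.98% of the list. They lay in the windows of Igf1 and Igfals with 3 each, and of Igfbp1, Igfbp4, Fgf21 and Angptl4 with 1 each. Some were nearest to a neighbour: the Igfbp1 one to Gm11985, and in the Igfals window those nearest to Meiob and Fahd1. In MEFs and Hep3B 0 of 51 and 0 of 23 peaks of these loci were that wide, beside 2.45% and 0.981% of the lists.

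Of the 141 liver peaks 20 (14.2%, 95% Wilson interval 9.37 to 20.9%, counting error alone) overlapped a MEF peak, beside 18.9% of the liver list. Seen from the other side, 21 of 51 MEF peaks (41.2%, 28.8 to 54.8%) overlapped a liver peak, beside 21.4% of the MEF list. Of the 20 top-10% liver peaks 2 were shared, the intronic Igf1 peak and the Hagh peak in the Igfals window. At the genes' own promoters the shared liver peaks were both at the start of Ghr, 1 at Igf1 and 1 at Angptl4. Their summits lay 97, 27, 317 and 463 bp from those in MEFs. At Igfbp4 a liver peak 1271 bp before the start overlapped both MEF promoter peaks. The other shared peaks included 11 nearer to neighbouring genes (Capn9, Rab11b, Kank3, Bcat2, Hagh, Fahd1 and Igfbp5).

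In Hep3B the GHR promoter, chr5:42423222-42424020 of hg38, had its summit 17 bp from the gene start in a UTR, with −log10 p of 6.66 and the 56.2nd percentile, and 3 intronic peaks had 5.81, 5.74 and 5.48. The IGFBP4 promoter peak, chr17:40443794-40444088, lay in a coding exon 432 bp from the start (5.36, percentile 16). All other Hep3B peaks of the windows were nearest to neighbours. The 4 peaks at IGFBP1 lay 360 to 1520 bp from a start site of IGFBP3, a binding protein gene with its own promoter peaks. The FGF21 window had the strongest one, rank 145 of 14369 with −log10 p of 9.29, at MAMSTR. Neighbours had peaks at their starts in both overexpression lists: TOP2A beside IGFBP4 (58 bp in MEFs, 161 bp in Hep3B), RAB11B (100 and 94 bp) and KANK3 (126 and 82 bp) beside ANGPTL4, SPSB3 beside IGFALS (10 and 52 bp), BCAT2 beside FGF21 (32 and 267 bp), and COG2 beside AGT (76 and 100 bp). In liver, of these, Rab11b and Bcat2 had a peak that close, 86 and 60 bp from the start. Of all genes 56.5% had a promoter peak in MEFs, 45.2% in Hep3B and 28.3% in liver. Neighbours without such a peak were not counted.

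The letters around the liver summits were searched within 100 bp on each side for 14 motifs, on both strands. For each of the 14 the share of the whole list lay inside the 95% Wilson interval of the share at the 9 loci, which covers counting error alone. With other search windows 4 of 28 list shares lay outside. Within 50 bp of the summit these were CACGTG (4.26%, interval 1.96 to 8.97%, beside 1.65%) and TCAAGGTCA (2.13%, 0.726 to 6.07%, beside 0.7%). Over whole peaks they were TTCNNNGAA (27.7%, 20.9 to 35.6%, beside 20.2%) and the PROX1 consensus (20.6%, 14.7 to 28%, beside 13.3%), where the peaks of the 9 loci were also wider, with a median of 606 bp beside 504 bp. The CCAAT box ATTGG, to which NF-Y binds, was found in 44 of 141 peaks (31.2%) beside 26.7% of the list. AGGTCA was found in 30 (21.3%) beside 26%, and its extension TCAAGGTCA in 4 (2.84%) beside 1.14%. These 4 lay at the internal promoter of Ghr, 1076 bp before Igfbp1 and at 2 of the Igfbp2 promoter peaks, at the 4.27th to the 57.8th percentile. TTCNNNGAA, the site of the growth hormone effector STAT5, was found in 14 (9.93%) beside 7.52%, with 5 in the Ghr window and 3 at Igf1. GTTAAT of HNF1 was found in 11 (7.8%) beside 8.76%, TTGCAA of C/EBP in 8 (5.67%) beside 6.97%, TGTTTAC of FOXA in 7 (4.96%) beside 6.26% and TGTTTGC of FOXA in 6 (4.26%) beside 8.2%. The E-box CACGTG was found in 6 (4.26%) beside 3.27%. Rarer were ATCGAT of ONECUT in 3 (2.13% beside 2.05%), CAAAGTCCA of HNF4A in 1 (0.709% beside 2.19%), TTGCATCA of C/EBP and ATF4 in 1 (0.709% beside 1.23%) and the palindrome TTGCGCAA in 1 (0.709% beside 0.185%). The consensus site of PROX1 itself, with up to 2 mismatches, was found in 7 (4.96%) beside 4.2%. One of those 7 was the upstream Ghr peak 36984 bp before the start. This consensus was not the motif with which the authors scanned their peaks, so its shares do not measure how many peaks hold that motif. Since TCAAGGTCA contains AGGTCA, its 4 peaks count for both.

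**Figure D4:**
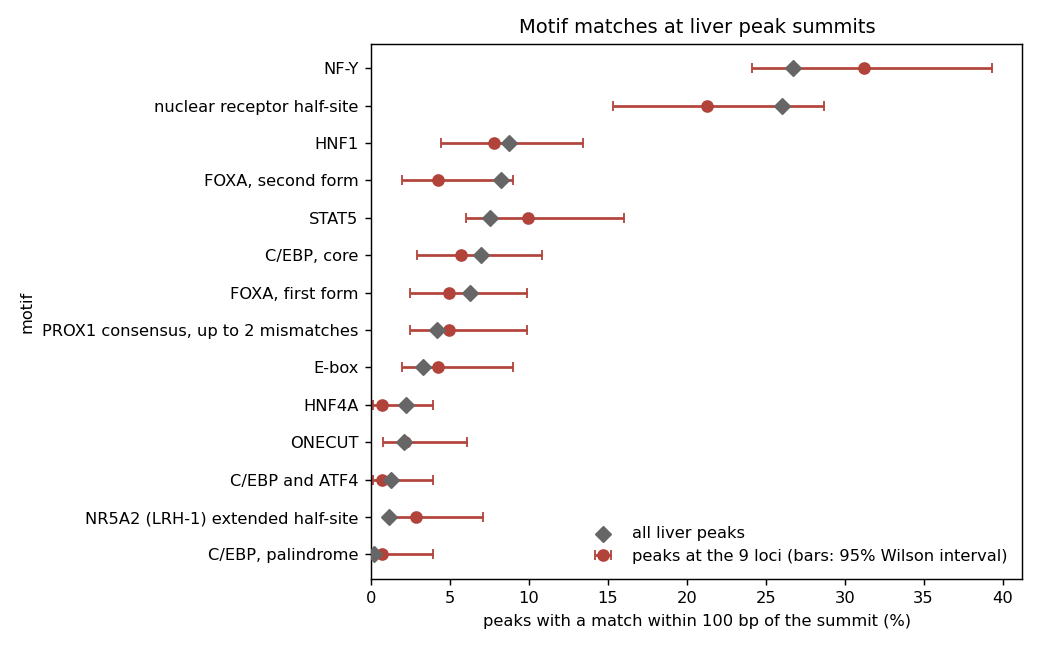
Share of liver peaks with a match within 100 bp of the summit (x axis, percent) for each of 14 motifs (y axis), for the 141 peaks of the 9 loci (circles, bars the 95% Wilson interval) and for the whole list (diamonds). The NF-Y and AGGTCA letters are the most frequent, at 31.2 and 21.3%, and each diamond lies within the bar of its motif in this window.

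The 61 other genes of these pathways were counted in the same way, in 6 groups. Promoter peaks were found at 35 of 61 in liver, 37 of 61 in MEFs and 30 of 60 in Hep3B, where the 9 genes gave 9, 4 and 2 and the shares of all genes were 28.3%, 56.5% and 45.2%. The groups are small, and none of the differences between them was tested. Of the 8 growth hormone signalling genes all 8 had a promoter peak in both mouse lists and 5 in Hep3B. Cish, a STAT5-induced inhibitor of the pathway, had the highest in liver (21.3, percentile 97.1, 504 bp from a start site) and stood at the 97.2nd percentile in MEFs. Cish, the kinase gene Jak2, the inhibitors Socs1 and Socs2 and the phosphatase gene Ptpn1 had one in all 3 lists.

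Of 13 IGF ligand, receptor, binding protein and protease genes 3 had a promoter peak in liver (Igf2, Insr and Irs1), 11 in MEFs and 7 in Hep3B. Igf2, the second IGF ligand, had the highest in liver (19.8, percentile 94.6), and the insulin receptor gene Insr had one in all 3 lists. The binding protein genes Igfbp3, Igfbp5, Igfbp6 and Igfbp7 had none in liver, where 28.3% of all genes had one. Their loci still held 9, 11, 27 and 3 liver peaks, beside 11, 13 and 11 at Igfbp1, Igfbp2 and Igfbp4, which had promoter peaks. Those of Igfbp2 were not among the 14369 strongest liver peaks. Of 9 FGF21 receptor and regulator genes 7 had one in liver, 6 in MEFs and 7 in Hep3B. Ppara, the fasting-activated nuclear receptor, was highest in liver (22.7, percentile 98.5) with 47 peaks at its locus, and Fgfr1, Fgfr3 and Atf4 had one in all 3 lists. Klb, the co-receptor gene, had 17 liver peaks and none at its promoter.

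Of 6 ANGPTL and lipase genes 3 had a promoter peak in liver, 2 in MEFs and 1 in Hep3B. Of 8 renin-angiotensin genes 2 had one in liver (Agtr1a at 13.2 and Lnpep at 9.72), 3 in MEFs and 3 of 7 in Hep3B, and Lnpep, an aminopeptidase that cleaves angiotensin peptides, had one in all 3. Of 17 other genes for secreted factors 12 had one in liver, 7 in MEFs and 7 in Hep3B. Fetub was highest (22.0, percentile 97.9), and Gdf15, Inhba and Enho had one in all 3 lists. Promoter peaks in liver and not in MEFs were found at 6 of 17 genes of this last group, 2 of 6 ANGPTL and lipase genes, 2 of 9 FGF21 genes, 1 of 8 renin-angiotensin genes and none of the growth hormone and IGF genes, beside 4.44% of all genes. The reverse was found at 8 of the 13 IGF genes. Its share over all genes was not counted directly. Of all 21938 genes 12400 (56.5%) had a promoter peak in MEFs, 6199 (28.3%) in liver and 973 (4.44%) in liver and not in MEFs. Over all genes, too, a promoter peak in MEFs and not in liver was thus more common than one in liver and not in MEFs.

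**Figure D5:**
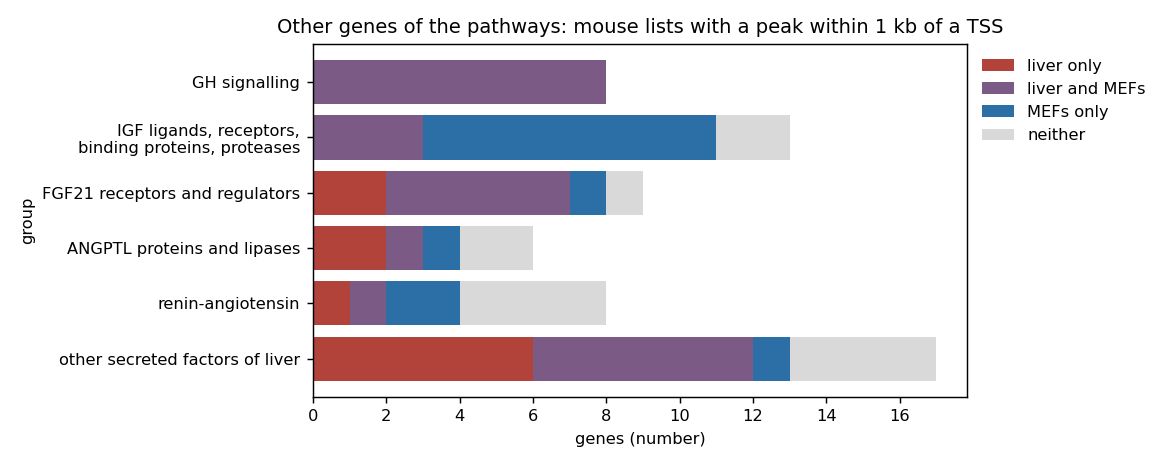
Number of genes (x axis) in each of 6 groups of pathway genes (y axis) with a promoter peak in liver only, in liver and MEFs, in MEFs only, or in neither mouse list. All 8 growth hormone signalling genes fall in the class of both lists, 8 of 13 IGF genes are MEF only, and 6 of 17 other secreted factor genes are liver only. Over all mouse protein-coding genes 56.5% had a promoter peak in MEFs, 28.3% in liver and 4.44% in liver and not in MEFs.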

How the data were processed

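CUT&RUN peak lists were analysed, 1 per antibody group, each called by the authors on all samples of the group together. Per the methods and the submitters' processing notes, reads were trimmed with Trim Galore 0.6.6 and aligned with Bowtie 2 2.4.2 to mm10 or hg38. Peaks were called with Genrich 0.6.1 at a mapping quality of at least 30, a minimum length of 5 and a q-value limit of 0.3. No control is named in that command. A supplementary figure legend of the paper describes its binding sites as found in comparison with IgG, without saying how IgG was used. The deposited columns hold the area of each peak, a signal summed over its length, and the −log10 p-value and −log10 q-value at its summit. The deposited score, capped, and the strand and name columns were not used. The lists did not end at a common value. The smallest area was 500 in liver and 200 in MEFs and Hep3B, and the lowest summit −log10 q was 4.04, 1.16 and 1.22. Depth per sample is not given by these lists, and read depth can change how many peaks a list holds.

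Summits were assigned to protein-coding genes of GENCODE M21 (mm10) and GENCODE 44 (hg38). A promoter peak had its summit within 1 kb of any annotated start site of the gene. Percentiles were ranked by −log10 p within each list. Sequences came from the mm10 and hg38 genomes. Python 3.11.15 with pandas 2.3.3, numpy 2.4.6 and scipy 1.17.1 was used, and the counting functions were checked on simulated peaks. Named peaks were, for each gene and list, the promoter peak or else the strongest peak, and others in the top 10% of a list or shared between liver and MEFs. Pathway genes were named where their liver promoter peak ranked highest in the group or where all 3 lists had one (in 1 group the first is not reported here), and Klb, the 3 IGF genes and the binding protein genes after their values were seen. The 9 genes, the pathway groups and the motifs were chosen with earlier results of these data known. The comparison of the strongest with the promoter peak, the liver-not-MEF count and the Ghr alignment were added after the peaks were seen. Other windows, promoter distances, filters, ranks, overlaps and motif windows were tried.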

Additional observations from a re-analysis of the deposited data

How the results depend on the processing

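No paired analysis was possible because each list pools the samples of a group, and for the same reason no replicate could be left out. The number of peaks at the 9 loci moved with the window: gene bodies alone held 69 liver, 14 MEF and 5 Hep3B peaks, flanks of 10 kb gave 19 MEF and 7 Hep3B peaks, and flanks of 100 kb gave 215 liver and 89 MEF peaks. Peaks nearest to the genes' own start sites numbered 19 in MEFs and 5 in Hep3B. With areas of at least 500, the smallest of the liver list, 27 peaks were left in MEFs and 11 in Hep3B, and Hep3B promoter peaks were left at 1 gene. With the 14369 strongest peaks of each list the loci held 53 in liver and 21 in MEFs, promoter peaks in liver were at 4 genes, and 3 genes had one in liver and not in MEFs (an alternative chosen after seeing the data). The median percentile in Hep3B was 27.1 in gene bodies and 29.6 within 10 kb. Liver peaks with a summit within 100 bp of a MEF summit numbered 6 (4.26%, beside 6.56% of the list). AGGTCA was found in 17 liver peaks within 50 bp of the summit and in 68 over the whole peak, and of 26 values for other motifs 22 moved by over 1.5 times, 10 within 50 bp and 12 over whole peaks. The other 54 values stayed within 1.5 times the count, or within the interval of the median. The peak number asked of genes in the comparison of strongest and promoter peaks was set after seeing the data. With at least 2 peaks instead, the promoter peak was the strongest at 789 of 5865 genes in liver and 4278 of 11820 in MEFs, and at 0 of 9 and 2 of 4 of the named genes as before. All 9 genes had a liver promoter peak, and 4 a MEF one, within 500 bp, within 2 kb and with protein-coding transcripts only. The depth behind each list limits how far an absent peak can be read.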
